A study of Homo sapiens with 6 samples.

Results

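Transcripts of 4 genes of bone morphogenetic protein (BMP) signalling, ID1, SMAD6, ATOH8 and GREM1, were compared between NCI-H292 cells given mitoxantrone and NCI-H292 cells given solvent. They are 4 of the 1305 genes of the deposited table, which holds only genes that the authors had selected as changed between these libraries. The 4 were picked from it by symbol with their results in this comparison known. The choice thus used the same reads as the values below, which are given as a description with no test. NCI-H292 is an established human lung cancer line. The control group (3 libraries) received DMSO at a dilution of 1 in 1000, and the treated group (3 libraries) received 50 nM mitoxantrone, an anticancer anthracenedione that poisons topoisomerase II. Both groups were harvested after 48 hours, and neither the labels nor the table names a genetic change in either. Senescence of lung cancer cells and therapy against LUNX are the subject named in the title of the series. Separate cultures are not named for the replicates, so p-values measure the spread between these samples alone, which may be technical.

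BMPs are secreted dimers that bind pairs of receptor kinases. The receptors phosphorylate SMAD1, SMAD5 and SMAD9, which join SMAD4, enter the nucleus and switch on target genes, among them ID1, SMAD6 and ATOH8. ID1 encodes a helix-loop-helix protein without a DNA-binding region, which captures partner transcription factors. SMAD6 encodes an inhibitory SMAD that limits the signal that induced it, and ATOH8 encodes a basic helix-loop-helix transcription factor. GREM1 encodes gremlin 1, a secreted protein that binds BMPs outside the cell and keeps them from their receptors. In airway epithelium the pathway takes part in branching during development and in the response to injury.

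The stretches before the RefSeq transcription starts of the 4 genes are shown because SMADs are known to bind short motifs in such DNA. Sequences are from RefSeq on GRCh38.p14, 5′ to 3′ on the strand of the gene, and all 4 genes matched by symbol. The 250 bases before each RefSeq start were searched on both strands for GTCTAGAC (the palindromic SMAD-binding element), GGCGCC (a GC-rich SMAD motif) and CAGAC (a shorter SMAD box, which lies inside neither of the other motifs), and matches are in capitals.
SMAD6, chr15:66701986-66702235, plus strand: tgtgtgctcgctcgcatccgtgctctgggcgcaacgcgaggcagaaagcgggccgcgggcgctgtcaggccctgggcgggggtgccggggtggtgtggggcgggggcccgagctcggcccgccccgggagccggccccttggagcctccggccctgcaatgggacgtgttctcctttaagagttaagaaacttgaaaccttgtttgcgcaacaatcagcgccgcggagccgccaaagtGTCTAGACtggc
GREM1, chr15:32717754-32718003, plus strand: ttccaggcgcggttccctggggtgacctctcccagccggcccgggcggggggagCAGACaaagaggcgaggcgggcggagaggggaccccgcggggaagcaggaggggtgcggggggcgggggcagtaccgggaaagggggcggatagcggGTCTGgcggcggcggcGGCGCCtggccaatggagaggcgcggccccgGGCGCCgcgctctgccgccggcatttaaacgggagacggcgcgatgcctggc
ID1, chr20:31605039-31605288, plus strand: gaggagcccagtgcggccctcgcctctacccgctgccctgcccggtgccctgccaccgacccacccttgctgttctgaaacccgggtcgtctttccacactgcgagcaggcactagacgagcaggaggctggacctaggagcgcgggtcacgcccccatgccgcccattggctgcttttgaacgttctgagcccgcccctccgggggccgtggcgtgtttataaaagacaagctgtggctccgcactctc
ATOH8, chr2:85753741-85753893, plus strand: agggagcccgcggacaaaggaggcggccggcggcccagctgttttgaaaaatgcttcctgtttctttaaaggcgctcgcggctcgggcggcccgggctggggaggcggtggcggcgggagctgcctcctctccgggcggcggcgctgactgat

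The SMAD6 stretch held GTCTAGAC from base -12 to base -5 before its RefSeq start. GENCODE starts SMAD6 at 66702228, inside this motif (66702224 to 66702231), so by that annotation the motif straddles the start. That motif was present in 64 of 35116 such stretches of all genes (0.182%). The GREM1 stretch held GGCGCC at 2 places, from -83 and from -52, and CAGAC at 2 places, from -196 and, on the other strand, from -99. GGCGCC was present in 16.4% and CAGAC in 38% of all stretches. RefSeq lists a second start for GREM1, whose 250 bases held 1 CAGAC and neither of the other motifs. None of the 3 motifs was in the 250 bases before the RefSeq starts of ID1 and ATOH8. GENCODE starts ATOH8 at 85751344, so the ATOH8 stretch begins 2.4 kb inside the gene by that annotation, and the bases before the GENCODE start were not searched. Of its 250 bases 153 are printed, because GENCODE places the rest in an exon. These matches describe letters in a window and not binding.

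The libraries held 14762544 to 17817782 assigned reads, as solved from the deposited FPKM values (fragments scaled to gene length and library total). Reads are also given as normalized reads, meaning reads divided by the authors' size factors. Of the epithelial markers, the keratin genes KRT8 and KRT18 were the 2 of 14 in the table, with 28410 normalized reads or more of KRT8 in every library, and the other 12 were not analysed here.

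ID1 was the most abundant of the 4 genes and the one with the smallest fall. Its 3 DMSO libraries held 11500, 16650 and 14630 normalized reads and its 3 mitoxantrone libraries 7514, 6095 and 5704. Every mitoxantrone library lay below every DMSO library, with a gap of 1.53-fold between the lowest DMSO and the highest mitoxantrone value. Means were 14260 ± 2596 (SD, n = 3) and 6437 ± 952 (SD, n = 3), so 45.1% of the control level was left. The fitted log2 fold change was -1.15 with a standard error of 0.17. On the length-adjusted scale ID1 stood at 617, 830.02 and 777 FPKM with DMSO, the highest level of any gene of the table in each of these 3 libraries, ahead of the ferritin light chain gene FTL at 511, 784 and 629.8. With mitoxantrone it stood at 365, 303 and 291 FPKM and ranked 8, 8 and 9. KRT8 led the table there, at 1183, 1093 and 1003 FPKM. In normalized reads lost per library ID1 came second in the table, with 7822 fewer on average, after the long non-coding RNA H19 with 10580.

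SMAD6 had the narrowest spread of the 4 genes. It had 248, 286.5 and 265 normalized reads in the DMSO libraries and 79.2, 64.6 and 69.8 in the mitoxantrone libraries. The groups did not overlap, with a gap of 3.14-fold. The coefficient of variation was 7.18% with DMSO and 10.4% with mitoxantrone. Means were 266.5 ± 19.1 (SD, n = 3) and 71.2 ± 7.38 (SD, n = 3), and the fitted log2 fold change was -1.90 with a standard error of 0.16, or 3.74-fold lower. FPKM values were 4.48, 4.81 and 4.73 with DMSO and 1.29, 1.08 and 1.20 with mitoxantrone.

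ATOH8 fell furthest. Its DMSO libraries held 357, 503 and 524 normalized reads and its mitoxantrone libraries 62.2, 43.8 and 41.9. The first DMSO library was the low one of its group, and even so it stood 5.75-fold above the highest mitoxantrone library. Means were 462 ± 90.8 (SD, n = 3) and 49.3 ± 11.2 (SD, n = 3), leaving 10.7% of the control level. The fitted log2 fold change was -3.23 with a standard error of 0.21, or 9.37-fold lower. Among the 512 genes that were lower in the table its fall ranked 16, against 57 for GREM1, 140 for SMAD6 and 432 for ID1.

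GREM1, the antagonist, was close to the limit of detection, and its raw reads are the fairest account of it. The DMSO libraries held 21, 24 and 21 reads and the mitoxantrone libraries 6, 1 and 3. All mitoxantrone libraries were below all DMSO libraries. Summed over each group these were 66 and 10 reads, a ratio of 5.55-fold after scaling for depth with a 95% exact (Clopper-Pearson) interval of 2.84 to 12.1, which covers counting error only. Normalized reads averaged 20.3 ± 3.88 (SD, n = 3) in the control group, against 3.68 ± 2.90 (SD, n = 3) in the treated group. The fitted log2 fold change was -2.44 with a standard error of 0.52, and the authors' deposited table gave -1.56 with a standard error of 0.38. It was -3.18 without mitoxantrone replicate 1, the library with 6 reads. For the other genes the authors' deposited table was nearer to the fit, at -1.11 for ID1, -1.81 for SMAD6 and -3.03 for ATOH8. GREM1 was at 0.29, 0.36 and 0.28 FPKM with DMSO and at 0.10, 0.02 and 0.05 with mitoxantrone. In GENCODE an antisense long non-coding RNA, AC090877.2, overlaps its start on the other strand. The labels do not say that strand was kept, so reads of the pair cannot be told apart there.

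**Figure D1:**
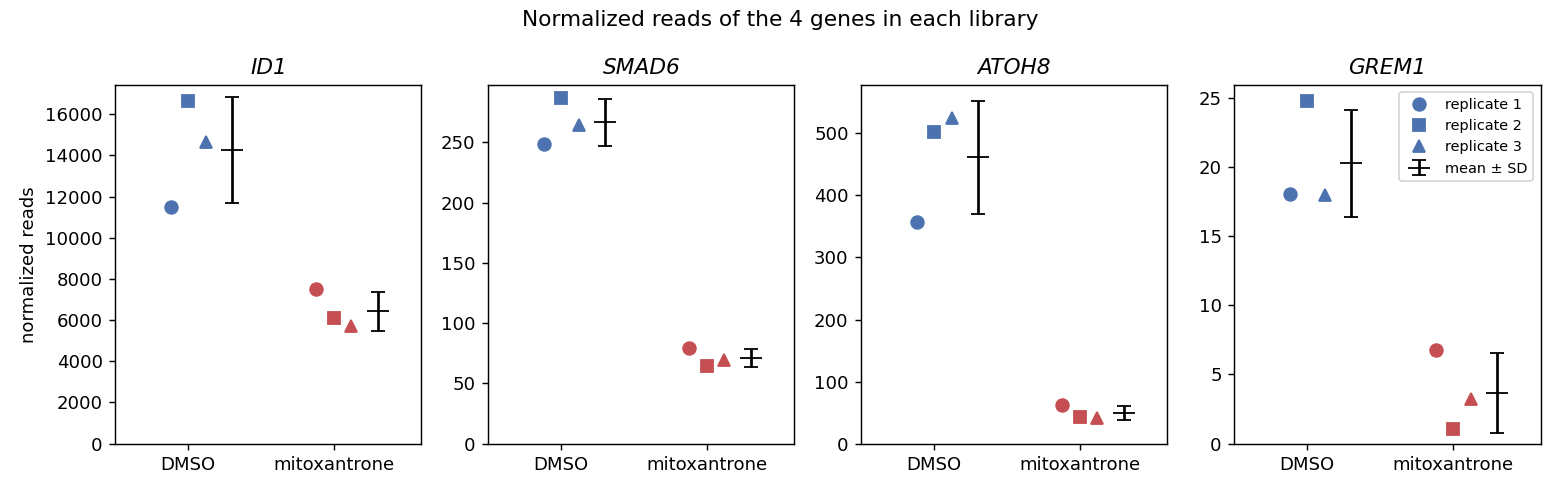
Normalized reads (y axis, from 0, a different scale in each panel) of ID1, SMAD6, ATOH8 and GREM1 in the 3 DMSO libraries (blue) and the 3 mitoxantrone libraries (red), with 1 marker shape per replicate number and the mean ± SD in black. In each panel all red points lie below all blue points, from the 1.53-fold gap of ID1 to the 5.75-fold gap of ATOH8.

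For 4 of 4 genes every mitoxantrone library was below every DMSO library. In the table as a whole 38.5% of genes were lower without overlap, and since the genes were chosen from this contrast nothing is read from that count. The authors' table held no gene with an absolute log2 fold change under 1.0, and ID1, at -1.11 there, was the nearest of the 4 to that limit. Genes outside the table, among them the ID1 relatives ID2 and ID3, were not analysed here. Within the mitoxantrone group the first replicate had the highest normalized reads of all 4 genes. It was the highest of its group for 204 of the 512 lower genes (39.8%). In bulk RNA, fewer cells that express a gene and less of its RNA per cell cannot be told apart.

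**Figure D2:**
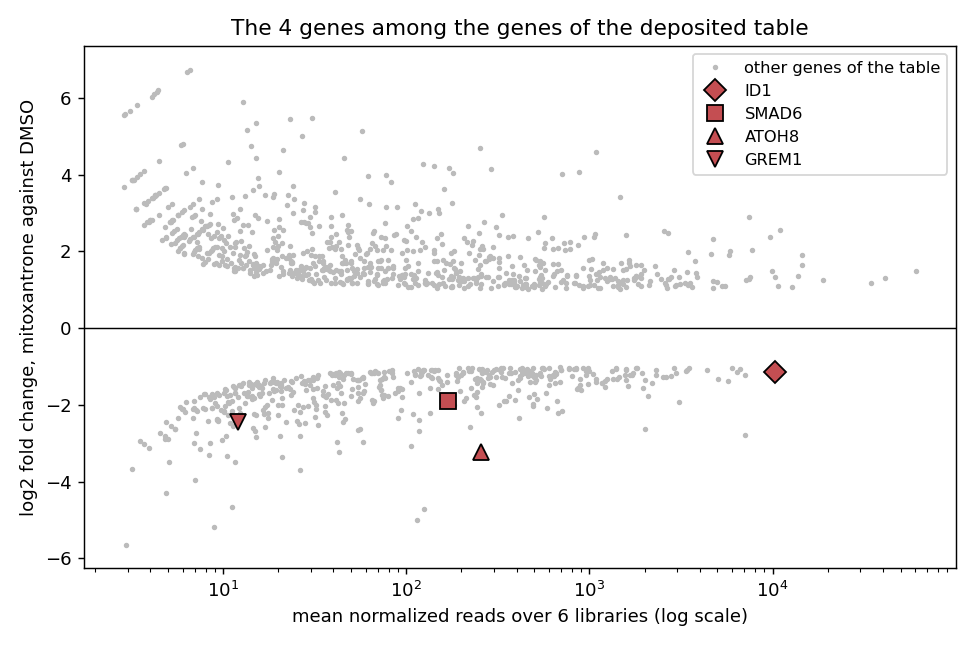
Each point is 1 of the 1305 genes of the deposited table, by mean normalized reads over the 6 libraries (x axis, log scale) and fitted log2 fold change, mitoxantrone against DMSO (y axis). The empty band around 0 is the authors' selection; ID1 lies at the abundant end at -1.15, ATOH8 at -3.23 below most genes of similar abundance, and GREM1 at the sparse end at -2.44.

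Per length, the order of levels with DMSO was ID1, then ATOH8 and SMAD6, then GREM1. ATOH8 at 4.88 ± 0.899 FPKM (SD, n = 3) and SMAD6 at 4.67 ± 0.172 FPKM (SD, n = 3) overlapped in that group. With mitoxantrone they no longer overlapped, at 0.493 ± 0.101 FPKM (SD, n = 3) for ATOH8 and 1.19 ± 0.105 FPKM (SD, n = 3) for SMAD6. ID1 was far above both and GREM1 below both in every library.

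Ratios of FPKM within a library do not depend on size factors, and they showed that the 3 target genes changed unequally. ATOH8 over SMAD6 was 0.868, 1.06 and 1.19 in the DMSO libraries and 0.474, 0.408 and 0.362 in the mitoxantrone libraries. These groups were separate: ATOH8 lost more than SMAD6. ID1 over SMAD6 was 138, 173 and 164 with DMSO and 282, 280.3 and 243 with mitoxantrone, again with no overlap, so ID1 lost less than SMAD6. GREM1 over SMAD6 was 0.0639, 0.0759 and 0.0597 with DMSO and 0.0753, 0.0142 and 0.0406 with mitoxantrone. Its groups overlapped, and at 1 to 6 reads a difference between the falls of GREM1 and SMAD6 was not detectable.

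**Figure D3:**
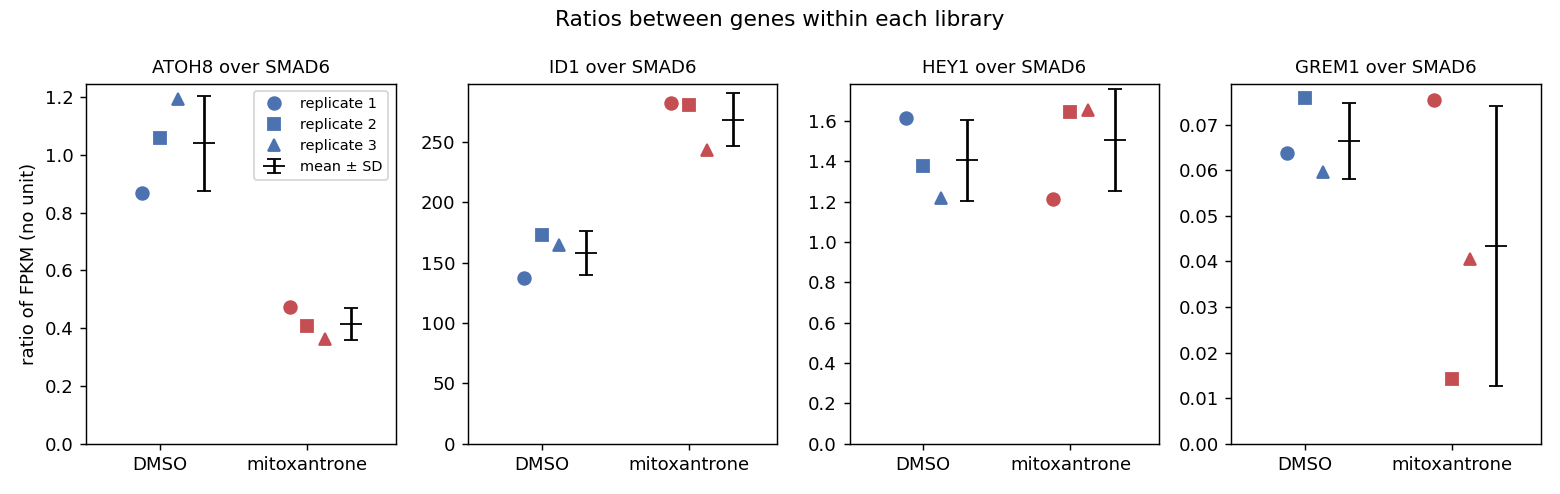
Ratio of FPKM of 2 genes within a library (y axis, no unit, from 0), for 3 DMSO (blue) and 3 mitoxantrone libraries (red), with the mean ± SD in black. ATOH8 over SMAD6 was lower and ID1 over SMAD6 higher in all 3 mitoxantrone libraries, while HEY1 over SMAD6 and GREM1 over SMAD6 overlapped between the groups.

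Other genes of the pathway were taken from 7 lists that hold 134 genes with the 4 members, of which 17 were in the table. Leaving out the members, 13 of 130 were in the table, and all 13 passed at an adjusted p of 0.05 (edgeR, quasi-likelihood, Benjamini-Hochberg), 6 as higher and 7 as lower. Over all its genes 56.7% passed as higher and 35.3% as lower (740 and 461 of 1305), and the table had been selected for change, so passing adds little. The median log2 fold change of the 13 was -1.30, against 1.26 for the whole table. With 6 higher, 7 lower and no gene near 0, that median is the value of 1 gene, COL1A1. The next value above it was 1.12, of NEDD4L, so the median is no measure of a shift of the pathway. With TMM or DESeq2 size factors computed over the table, which shifted its median by -0.69 and -0.99, 366 and 219 genes passed as higher and 512 as lower. The 6 higher pathway genes then became 4 and 2, and the 7 lower ones stayed 7. Such a shift shrinks rises and enlarges falls by construction, so these counts do not compare how firm the rises and falls are.

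Of 20 listed BMP and GDF ligands 4 were in the table, 2 higher and 2 lower. The list left out GDF15 and NODAL, which the table also held, both higher. GDF15 had a mean of 4743 normalized reads and a log2 fold change of 2.32 (standard error 0.15). NODAL had a mean of 7.37 and a log2 fold change of 2.50 (standard error 0.58). The split of the 4 thus depends on how the list was drawn. BMP2, a classical ligand of the pathway, had 34, 23 and 34 reads with DMSO and 51, 96 and 77 with mitoxantrone. All mitoxantrone libraries were above all DMSO libraries, opposite to the target genes described above. The log2 fold change was 1.54 with a standard error of 0.26 and the edgeR adjusted p 5.9e-04. Under TMM and under DESeq2 size factors from the table the fold change was 0.85 and 0.55. The edgeR adjusted p-values there were 0.087 and 0.92 (1.4e-05 to 0.92 over the alternatives). Both sets of size factors lower every fold change by construction, so they do not show that a rise is unstable. BMP5 had 1, 0 and 0 reads with DMSO and 5, 9 and 10 with mitoxantrone, a ratio of 28.6-fold with a 95% exact interval of 4.66 to 1174 that covers counting error only. It rests on 1 DMSO read: the fitted log2 fold change was 4.36, and 6.10 without DMSO replicate 1, where all DMSO reads are 0 and the value depends on the prior count. The authors' deposited table gave 1.48. Its edgeR adjusted p was 0.0048, and 0.069 with DESeq2 size factors over the table (3.4e-04 to 0.069 over the alternatives). GDF6, a BMP-type ligand of skeletal and eye development, fell from a control mean of 88.5 ± 24.9 to a treated mean of 28.4 ± 2.66 normalized reads (SD, n = 3 each). AMH, the anti-Müllerian hormone, which signals through the same SMADs, fell from a control mean of 224 ± 23.0 to a treated mean of 74.7 ± 29.5 normalized reads (SD, n = 3 each).

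None of the 17 receptors and co-receptors was in the table. Of 22 secreted antagonists and modulators GREM1 was the 1 in the table, so noggin (NOG), chordin (CHRD) and follistatin (FST), other extracellular binders of these ligands, were not analysed here. Among 20 SMADs and their intracellular regulators SMAD6 was joined by NEDD4L, a ubiquitin ligase that acts on SMADs. NEDD4L had 1452, 1343 and 1223 normalized reads with DMSO and 2817, 3045 and 2843 with mitoxantrone. It rose with a log2 fold change of 1.12 (standard error 0.13) and an edgeR adjusted p of 2.0e-05. Under TMM and under DESeq2 size factors from the table, which lower every fold change by construction, the fold change was 0.43 and 0.12. The edgeR adjusted p was 0.10 and 1 there (2.1e-13 to 1 over the alternatives).

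Of 20 listed BMP target genes the 3 target genes described above and HEY1 were in the table, all lower. That uniform direction depends on how the list was drawn. The 3 described above had been picked with their falls known. HEY1 was not among them, but the list that holds it was also drawn with earlier results known. The table held only genes selected as changed, so HEY1 is no independent case. Among all 1305 genes there, 35.3% passed as lower in the edgeR test. The rest of the list was absent and was not analysed here, so a fall of BMP target genes as a class was not tested. HEY1 encodes a transcriptional repressor that is a target of both Notch and BMP signals. It had 354, 348 and 284 normalized reads with DMSO and 84.8, 93.8 and 102 with mitoxantrone, with no overlap. The log2 fold change was -1.81 with a standard error of 0.16 and an edgeR adjusted p of 1.2e-06. With library totals the log2 fold change was -1.88. TMM and DESeq2 size factors from the table shift every gene down by construction, so they are no check of this fall. HEY1 over SMAD6 in FPKM was 1.62, 1.38 and 1.22 with DMSO and 1.21, 1.65 and 1.66 with mitoxantrone, so a difference between the falls of these genes was within the spread of the libraries. Unlike the 4 chosen genes, HEY1 was lowest in the first mitoxantrone replicate.

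**Figure D4:**
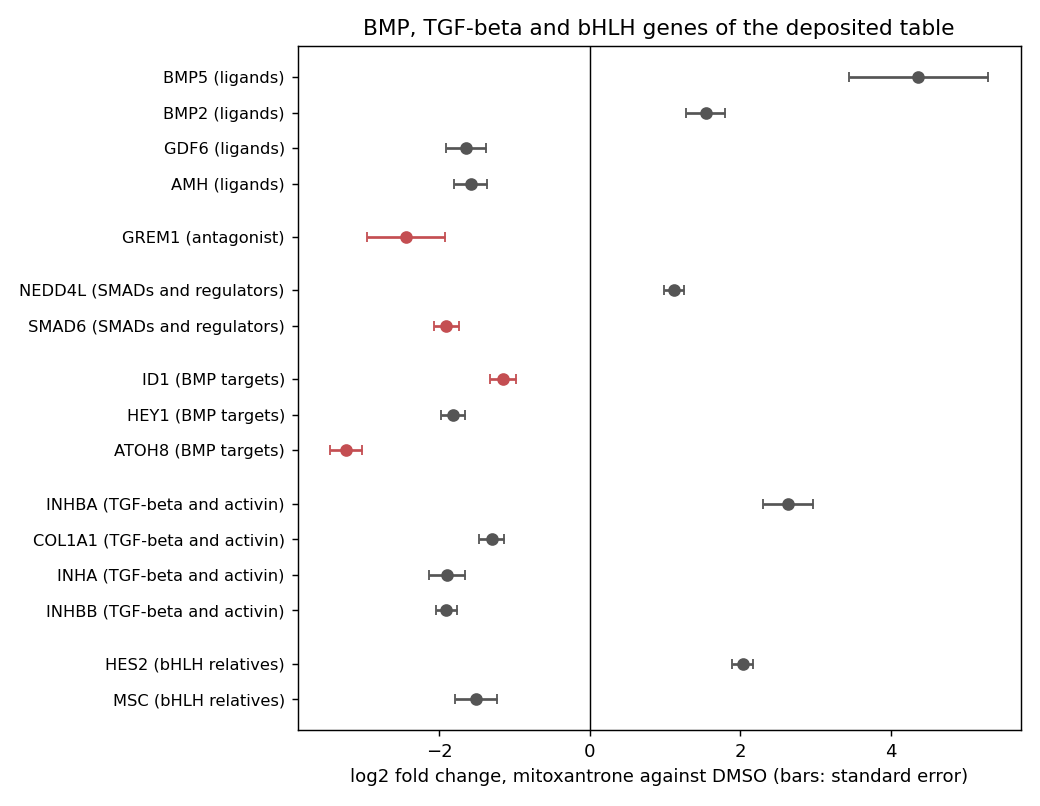
Fitted log2 fold change, mitoxantrone against DMSO (x axis), with its standard error as bars, for 16 genes of the 7 pathway lists that are in the table; ID1, SMAD6, ATOH8 and GREM1 are red. The 4 listed BMP target genes of the table (ID1, HEY1, ATOH8 and SMAD6) and GREM1 lie left of 0, as do GDF6, AMH, INHA, INHBB, COL1A1 and MSC. BMP2, BMP5, NEDD4L, INHBA and HES2 lie right of 0 and keep that sign under both alternative sets of size factors. With DESeq2 size factors over the table NEDD4L was at 0.12 (standard error 0.13) and BMP2 at 0.55 (standard error 0.26). Neither these nor BMP5 passed there, while INHBA and HES2 did. Those size factors lower every fold change by construction.

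In the neighbouring TGF-beta and activin branch, which signals through SMAD2 and SMAD3, 5 of 19 genes were in the table, 2 higher and 3 lower. The activin and inhibin subunits parted. INHBA, the subunit of activin A, rose from a control mean of 8.24 ± 1.95 to a treated mean of 51.5 ± 11.4 normalized reads (SD, n = 3 each). INHBB, the subunit of activin B, fell from a control mean of 1052 ± 141 to a treated mean of 282 ± 8.43 normalized reads (SD, n = 3 each), and INHA, the inhibin alpha subunit, fell from a control mean of 104 ± 21.7 to a treated mean of 28.1 ± 2.04 (SD, n = 3 each). COL1A1, a collagen gene of the same list, fell from a control mean of 344 ± 49.5 to a treated mean of 139 ± 19.5 normalized reads (SD, n = 3 each).

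Of 20 listed partners and relatives of ID proteins and ATOH8, 2 were in the table, a count that depends on how the list was drawn. HES2, a repressor of the hairy family, rose from a control mean of 287 ± 26.4 to a treated mean of 1176 ± 52.3 normalized reads (SD, n = 3 each). MSC, which encodes the repressor musculin, fell from a control mean of 64.2 ± 15.6 to a treated mean of 22.4 ± 3.37 normalized reads (SD, n = 3 each). The E-protein genes TCF3, TCF4 and TCF12, whose products ID1 binds, were not analysed here.

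GREM1 is also known as a fibroblast gene. Of 10 fibroblast markers COL1A1 was the 1 in the table, with 293 to 392 normalized reads with DMSO and 119.9 to 159 with mitoxantrone; of 8 endothelial markers CDH5 was the 1, with 386 to 517 and 188 to 229.7. Of 8 leukocyte markers CD14 (lower) and ITGAM (higher) were in the table, with summed levels of 48.1 to 74.5 and 38.4 to 59.4. The labels name only the NCI-H292 line, so these genes are given as levels in that line and not as a measure of other cells. The other members of these lists were not analysed here, and why GREM1 fell was not tested.

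Across the 6 libraries the profiles most like that of each gene were sought among protein-coding genes of the table with at least 64.2 mean normalized reads, by Pearson's r of log2(normalized reads + 1). The closest to ATOH8 were DUSP9, a phosphatase of MAP kinases (r = 0.9997), AKR1C2 (r = 0.998) and IGFBP3 (r = 0.997). The closest to SMAD6 were MYBL2 (r = 0.998), CDKN1B (r = 0.998) and DSN1 (r = 0.997), and to ID1 PTMS (r = 0.997), PIM3 (r = 0.995) and MVK (r = 0.993). GREM1 had looser matches in HOXD13 (r = 0.968), CEBPD (r = 0.965) and CENPU (r = 0.965). DUSP9 had 186 to 239.9 normalized reads with DMSO and 41.9 to 55.4 with mitoxantrone, the low first DMSO library included. Points share treatment and library, and any 2 genes that fell correlate: the median r with the other 511 lower genes was 0.918 for ID1, 0.954 for SMAD6, 0.9504 for ATOH8 and 0.880 for GREM1. Among the members r was 0.996 for SMAD6 with ATOH8, 0.981 for ID1 with ATOH8, 0.970 for ID1 with SMAD6, and 0.930 to 0.937 for GREM1 with the others.

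The table places ID1 (ENSG00000125968) on chromosome 20 from 30193086 to 30194318, SMAD6 (ENSG00000137834) on chromosome 15 from 66994566 to 67074338, GREM1 (ENSG00000166923) on chromosome 15 from 33010175 to 33026870 and ATOH8 (ENSG00000168874) on chromosome 2 from 85978467 to 86015189, all on the plus strand. It names no build, and its starts equalled those of GENCODE on GRCh38 for 4 of 1267 genes, so these positions are not those of the sequences above. Within 1 Mb of SMAD6 the table held no other gene. Near ID1 it held BCL2L1, which encodes the survival protein BCL-XL, 57.9 kb away and higher, with a log2 fold change of 1.27 (standard error 0.15) and an edgeR adjusted p of 2.0e-05, and RP11-243J16.7, 79.7 kb away, at 2.44 (standard error 0.80) with an edgeR adjusted p of 0.11. Near ATOH8 it held RETSAT (1.31) and REEP1 (-1.29), and near GREM1, 78.0 kb away, ARHGAP11A (-1.22).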

How the data were processed

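RNA of 6 NCI-H292 samples was sequenced in paired-end mode, per the labels' protocols; whether poly(A) selection or removal of ribosomal RNA was used, and whether strand was kept, is not stated. Tools named in the submitters' processing notes, with no role, are HISAT2 2.0.1, DESeq2, Cufflinks 2.2.1, HTSeq 0.6.1 and cutadapt 1.9.1. The build is not given in the sources used here, nor is the annotation.

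The authors deposited 1 table of 1305 genes. Per the file headers it holds raw read counts and FPKM per library, a mean normalized count (a signal scaled by the authors' DESeq2 size factors), log2 fold changes by the authors, their errors, a test score, and raw and adjusted p-values. Size factors (largest relative error 5.0e-10), library totals and the number of genes that the authors tested (18310, range 18301 to 18318) were solved from these columns.

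Read counts were fitted with edgeR 4.0.16 (quasi-likelihood test, R 4.3.3, limma 3.58.1) with treatment as the only term, size factors as the authors had them and no filter, and p-values were adjusted by Benjamini-Hochberg for 18310 tests. Alternatives used TMM, DESeq2 1.42.0, library totals, a filter at 10 normalized reads, a replicate block, each library left out, and FPKM with pseudocounts of 0.1 and 1. The members and lists were chosen with earlier results of these data known. Named genes were the members, every listed pathway gene of the table (1 is not reported here), the 3 most similar profiles of each member, and neighbours within 1 Mb; FTL, H19, the marker genes and other single genes were named after their values were seen. Replicates were no duplicates (chi-square per gene 2.91 to 25.4). Columns of per-library values left unused numbered 0.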

Additional observations from a re-analysis of the deposited data

How the results depend on the processing

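The 4 genes were lower with mitoxantrone under every alternative run. With TMM size factors over the table the log2 fold changes were -1.83 for ID1, -2.59 for SMAD6, -3.91 for ATOH8 and -3.11 for GREM1, and with DESeq2 size factors over the table -2.14, -2.89, -4.22 and -3.41. Both centre a set selected as changed and mostly higher, which by construction enlarges falls and shrinks rises. On the log2(FPKM + 1) scale they were -1.37 for SMAD6, -1.97 for ATOH8 and -0.31 for GREM1, and with a pseudocount of 0.1 GREM1 was at -1.41, since a pseudocount shrinks the change of low genes. Leaving out 1 library at a time gave -1.28 to -1.02 for ID1, -1.99 to -1.84 for SMAD6, -3.43 to -3.12 for ATOH8 and -3.18 to -1.99 for GREM1. Genes that passed as higher numbered 740 in the main analysis, 366 with TMM and 219 with DESeq2 size factors over the table, and 622 to 715 with 1 library left out. Pathway genes other than the 4 that passed as higher were 6, and 2 with DESeq2 size factors over the table. With the replicate block 736 genes passed as higher and 463 as lower, and the block moved no count by over 1.5 times. Same-numbered libraries correlated in their deviations from the group mean at -0.456, -0.269 and 0.234. With 3 libraries per group these deviations are tied to one another, so they cannot decide whether same-numbered samples were paired. At these depths GREM1 rests on 76 reads in all.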

Other observations

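Among genes of the table that the authors' annotation column ties to a biological process term naming BMP, 10 in all, 8 passed as lower and 2 as higher in the edgeR quasi-likelihood test, with a median log2 fold change of -1.36; this search was added after the data were seen. Over all genes tested 56.7% passed as higher and 35.3% as lower. ID1, SMAD6 and GREM1 were chosen with this result known. Without these 3, 5 of 7 passed as lower and 2 as higher, with a median of -1.32, the value of FOXD2. With no gene near 0 in the table, both medians fall among the lower genes once these are the majority, and they measure no shift. Besides ID1, SMAD6, GREM1 and GDF6, the lower ones were SULF1, which encodes a sulfatase that edits heparan sulfate on the cell surface (log2 fold change -2.14, standard error 0.37), the Wnt effector gene LEF1 (-1.39, standard error 0.33), and the transcription factor genes FOXD2 (-1.32, standard error 0.26) and HOXA13 (-1.16, standard error 0.28). BMP2 and the calcium channel gene RYR2 (1.75, standard error 0.25) were higher.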
